A study of Mus musculus with 34 samples.

Results

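The liver before partial hepatectomy (PHx) was profiled in mice that had not been operated on, and these 12 livers, labelled as the untreated baseline at 0 h, were chosen by their labelled time and genotype from the 34 libraries of the series. They comprised 6 livers of WT mice and 6 livers of SIRT1intKO mice, which lack SIRT1 in the intestine. The mice were males of 8 to 12 weeks on a C57/Bl6 background. SIRT1intKO mice carried Cre recombinase under the Villin promoter, which is active in intestinal epithelium, together with Sirt1 alleles whose exon 4 was flanked by loxP sites, and the WT littermates carried the loxP-flanked alleles without Cre. SIRT1 is an NAD-dependent protein deacetylase. The other 22 libraries were made from livers taken at 6 h or 24 h after PHx, from other mice. RNA from whole liver was sequenced as stranded mRNA libraries of paired 100 bp reads. The total of estimated counts was 15191462 to 18400075 in the WT livers and 14934058 to 16442324 in the SIRT1intKO livers, and levels are given here as CPM, the counts relative to a library total that was scaled by TMM to balance the composition of the libraries.

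The liver makes most proteins of the blood plasma, turns cholesterol into bile acids, and stores and releases glucose and lipids, and hepatocytes do nearly all of this work. In male mice it also secretes the major urinary proteins (Mup), small carriers of pheromones whose transcription follows the pulses of growth hormone. Bile acids return from the intestine, where they activate the nuclear receptor FXR and induce the hormone FGF15, which represses bile acid synthesis in the liver through the receptor FGFR4 and its partner β-Klotho. The comparison of genotypes at 0 h asked whether loss of intestinal SIRT1 was accompanied by another liver transcriptome before any surgery.

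The resting transcriptome was dominated by few genes. Alb, which encodes serum albumin, took 4.58% of all counts (mean of 12 livers, range 3.71 to 5.44%), the 10 most abundant genes took 17.9% ± 0.67 (SD, n = 12), the 30 most abundant genes took 31.8% ± 0.92 and the 1000 most abundant genes took 76.8% ± 0.60. Genes for secreted plasma proteins held several of the top ranks. Serpina3k and Serpina1e, which encode inhibitors of serine proteases, took 1.68% and 1.35%, Apoe, an apolipoprotein, took 1.59%, and Trf, which encodes the iron carrier transferrin, took 1.26%. The genes of the fibrinogen chains, Fga, Fgb and Fgg, took 0.641%, 0.604% and 0.538%. Among the nuclear genes of the top 30, enzymes of metabolism were few, with Bhmt, betaine-homocysteine methyltransferase, at 0.527% and Cyp2e1, a cytochrome P450 of pericentral hepatocytes, at 0.508%.

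Mitochondrially encoded genes took 8.24% ± 0.53 of counts (n = 12), led by mt-Co1 with 2.93% and mt-Cytb with 1.30%. A further 3.58% ± 0.37 was assigned to 4 nuclear pseudogenes of mitochondrial genes, Gm28661, Atp6-ps, Gm28437 and Gm29216, which stood among the 30 most abundant genes. These pseudogenes resemble the mitochondrial genes closely, so the split of reads between them was set by the quantification and is uncertain. Per kilobase of exon, Alb still ranked first (19247 CPM per kb), mt-Co1 second (18646 CPM per kb) and Apoa2, a short apolipoprotein gene that ranked 25 by counts, ranked 7 (10678 CPM per kb). The 22 Mup genes together took 5.29% ± 1.51, from 1.81% in WT replicate 2 to 7.75% in SIRT1intKO replicate 6, with 4.48% ± 1.40 in the WT livers and 6.10% ± 1.23 in the SIRT1intKO livers (n = 6 each). Mup genes are also near-identical copies, and values of single members carry the same uncertainty.

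Most genes differed little between livers. The spread of a gene was taken as the SD of its log2 CPM within genotypes, pooled over the genotypes. Among the 9023 genes with a mean of at least 5 CPM the median SD was 0.19 (interquartile range 0.14 to 0.26), and only 74 genes, or 0.82%, had an SD over 1. The median SD was 0.16 within the WT livers and 0.20 within the SIRT1intKO livers. Among genes with a mean of at least 50 CPM, Psmc3, a subunit of the proteasome's regulatory particle, was the most even, at 105 to 114 CPM (SD 0.040). It was followed by Mtch2 and Timm23, of the mitochondrial membranes, with 137 to 154 and 87.7 to 97.5 CPM. Masp2, a protease of the complement system, was the eighth, with 234 to 259 CPM. The bile salt export pump Abcb11 was the tenth of these 2222 genes, with 440.4 to 509.9 CPM (SD 0.053).

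The 30 genes with the largest spread had SDs of 1.79 to 3.94, and the next gene outside this limit had an SD of 1.68. They included the metallothioneins Mt1 and Mt2, the STAT5 target Cish, the PPARα target Cyp4a14, the neutrophil chemokine Cxcl1, the smooth muscle actin gene Acta2, the signalling regulator Rgs16, 3 Mup genes and several processed pseudogenes, which are copies of ribosomal protein and other genes. Mt1, a metal-binding protein induced by zinc and glucocorticoids, was at 367, 1207, 18.6, 201, 104 and 263 CPM in the WT livers and 112, 49.5, 575, 10.7, 70.4 and 124 CPM in the SIRT1intKO livers. Mt2 was at 225, 838, 8.11, 111, 42.7 and 115 CPM in the WT livers and 39.1, 17.02, 366, 6.49, 32.8 and 55.5 CPM in the SIRT1intKO livers, with the same livers at both ends. WT replicate 2 and SIRT1intKO replicate 3 held the highest levels of their genotypes, and WT replicate 3 and SIRT1intKO replicate 4 the lowest. Neither gene passed the test between genotypes, with log2 differences (SIRT1intKO minus WT) of -1.20 ± 0.67 for Mt1 and -1.37 ± 0.70 for Mt2 (SE; adjusted p = 1 for both by edgeR's quasi-likelihood test). Both differences lean on WT replicate 2, at 1207 and 838 CPM against at most 367 and 225 CPM in the other WT livers.

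**Figure D1:**
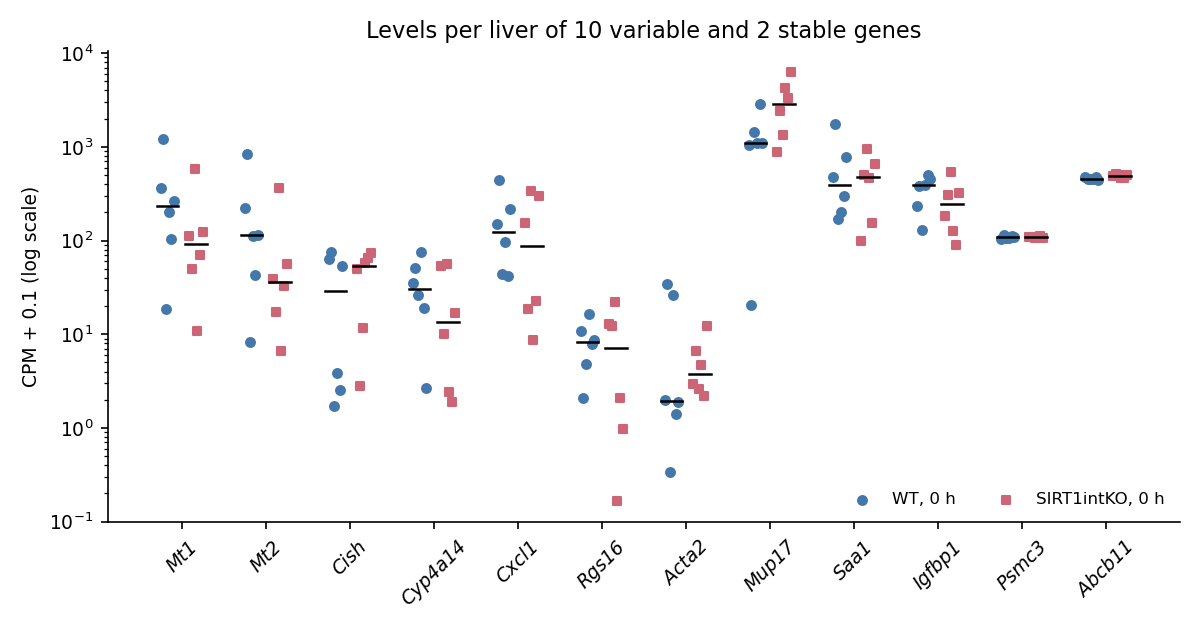
Level of 12 genes in each of the 12 unoperated livers, as CPM + 0.1 on a log scale; circles are WT livers, squares are SIRT1intKO livers and bars are medians of 6. Mt1 ranged from 10.7 to 1207 CPM and Cish from 1.62 to 75.6 CPM, whereas the even genes Psmc3 and Abcb11 ranged from 105 to 114 and from 440.4 to 509.9 CPM.

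The promoters of Mt1 and Mt2 are shown because the 2 genes moved together across the livers. The sequences come from RefSeq on GRCm38.p6 (not the build of the counts), run from 250 bases before the start of the gene to base 29 of the gene, on the plus strand, and lie at chr8:94178839-94179117 for Mt1 and chr8:94172368-94172646 for Mt2. Capitals mark the core of the metal response element, searched as TGCACNC or TGCGCNC on both strands, a motif that was chosen after the values were seen.
Mt1: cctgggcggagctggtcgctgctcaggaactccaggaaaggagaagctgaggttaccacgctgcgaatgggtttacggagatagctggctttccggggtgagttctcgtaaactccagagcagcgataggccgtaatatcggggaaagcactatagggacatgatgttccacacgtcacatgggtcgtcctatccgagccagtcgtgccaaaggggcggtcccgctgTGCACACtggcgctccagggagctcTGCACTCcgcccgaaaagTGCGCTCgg
Mt2: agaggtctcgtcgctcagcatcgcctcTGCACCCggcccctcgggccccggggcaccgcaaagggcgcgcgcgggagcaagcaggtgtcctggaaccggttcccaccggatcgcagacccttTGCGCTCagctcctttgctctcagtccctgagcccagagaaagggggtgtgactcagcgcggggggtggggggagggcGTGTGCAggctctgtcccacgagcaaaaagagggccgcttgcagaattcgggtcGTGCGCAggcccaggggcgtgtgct
Mt1 held 3 matches and Mt2 held 4. In all 32851 promoters of 300 bases in the table, 25.7% held at least 1 match, 1.97% held at least 3 and 0.517% held at least 4. A match is a description of the letters and was not tested for binding.

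Cish, a feedback inhibitor of growth hormone signalling that is induced by STAT5, was at 64.2, 75.6, 1.62, 3.77, 2.44 and 53.3 CPM in the WT livers and 49.5, 2.69, 11.6, 57.8, 65.2 and 73.5 CPM in the SIRT1intKO livers. The values fell into a high and a low set with nothing between 11.6 and 49.5 CPM, and both sets held livers of both genotypes. Socs2, another STAT5-induced inhibitor of this pathway, was at 45.6, 138, 4.50, 24.1, 15.04 and 37.8 CPM in the WT livers and 71.6, 19.98, 24.9, 89.8, 61.9 and 126 CPM in the SIRT1intKO livers. WT replicate 3 had the lowest level of both genes, and WT replicate 2 the highest. The promoter of Cish, taken from the same table at chr9:107296409-107296687 on the plus strand, held the STAT motif TTCNNNGAA 2 times, both after the start of the gene, as the capitals show.
Cish: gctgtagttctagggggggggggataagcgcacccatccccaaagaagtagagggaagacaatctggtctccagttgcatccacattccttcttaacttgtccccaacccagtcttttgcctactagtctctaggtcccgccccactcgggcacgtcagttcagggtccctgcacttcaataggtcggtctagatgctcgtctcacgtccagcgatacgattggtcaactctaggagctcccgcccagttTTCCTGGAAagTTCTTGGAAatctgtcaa
At least 1 match stood in 8.30% of all promoters in the table and at least 2 stood in 0.457%. This motif was likewise chosen after the values were seen.

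Median SDs of gene lists are given beside 0.26 over all 14980 tested genes, as a description. The median was 0.51 over 20 acute-phase genes and STAT3 targets, 0.51 over 15 genes of gluconeogenesis and fasting, 0.42 over 18 clock genes and 0.28 over 22 genes of fatty acid oxidation and ketogenesis. Members of the same list differed in spread. The acute-phase gene Saa1, which encodes serum amyloid A, was at 478, 1769.9, 169.7, 203, 296 and 784 CPM in the WT livers and 99.8, 496, 940.5, 465, 154 and 656 CPM in the SIRT1intKO livers. Its level was highest in WT replicate 2 and lowest in SIRT1intKO replicate 1, and the groups overlapped. Across the 12 livers log2 CPM of Saa1 and of Lcn2, which encodes the siderophore-binding lipocalin 2, were correlated (r = 0.91, p = 2e-05 by permutation, adjusted p = 0.00016 over the 8 pairs examined; rho = 0.90, permutation p = 0.00012, adjusted p = 0.00096). It was 0.89 within the WT livers, 0.95 within the SIRT1intKO livers and 0.85 without the 2 livers farthest from the median of Saa1. G6pc1, the catalytic subunit of glucose-6-phosphatase, ranged from 97.4 to 797 CPM, and Igfbp1, an insulin-repressed binding protein of insulin-like growth factors, from 89.3 to 533 CPM. Cyp4a14, a fatty acid hydroxylase induced by PPARα, ranged from 1.77 to 75.1 CPM, and Nr1d1, the clock repressor REV-ERBα, from 2.09 to 61.6 CPM. The core clock activator Bmal1 was even, at 21.7 to 32.5 CPM, and the clock output gene Dbp was low in every liver, at 0.414 to 1.37 CPM.

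The other pairs described had weaker relations. Cyp7a1, the rate-limiting enzyme of bile acid synthesis, and Cyp8b1, the sterol 12α-hydroxylase, gave r = 0.54 and rho = 0.48 (adjusted permutation p = 0.111 and 0.187). Cyp7a1 and its repressor Nr0b2 (SHP) gave r = 0.27 and rho = 0.13 (adjusted permutation p = 0.541 and 0.684). The remaining 4 pairs gave r of -0.15 to 0.58 with adjusted permutation p of 0.111 or more, and rho of -0.41 to 0.68 with adjusted permutation p of 0.0501 or more.

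Other variable genes were at or near 0 in single livers. Pde2a, a phosphodiesterase of cyclic nucleotides, was at 17.2, 20.7, 12.01, 17.4, 0 and 1.28 CPM in the WT livers and 16.3, 13.9, 14.6, 17.2, 20.4 and 19.6 CPM in the SIRT1intKO livers. Il10rb, the shared subunit of the receptors of interleukin 10 and related cytokines, was at 7.45, 6.90, 8.23, 7.70, 0 and 5.71 CPM in the WT livers and 0.355, 6.90, 6.21, 8.35, 9.37 and 9.31 CPM in the SIRT1intKO livers. WT replicate 5 had 0 of Pde2a and Il10rb, and SIRT1intKO replicate 1 was low for Il10rb alone. Gm45837, on chromosome 7 like Pde2a, was at 4.62, 11.7 and 14.5 CPM in WT replicates 3, 5 and 6. It was at 0 in the other 9 livers. Pde2a had its lowest levels in the livers with Gm45837, and a split of reads between these genes was not tested. Slc15a2, a peptide transporter, was also at 0 in WT replicate 5 and ranged up to 16.3 CPM. Dmbt1, a scavenger receptor of mucosal epithelia, was at 0, 0.153, 0.120, 5.60, 0 and 0 CPM in the WT livers and 1.01, 3.68, 0, 0.331, 0.0655 and 64.5 CPM in the SIRT1intKO livers, so that SIRT1intKO replicate 6 stood far above the rest. Ugt2b38, a glucuronosyltransferase, was at 19.7, 6.79, 0, 0.108, 0 and 0.0641 CPM in the WT livers and 7.81, 0.131, 16.99, 0.133, 30.7 and 25.8 CPM in the SIRT1intKO livers. It lay above 5 CPM in 6 livers and below 0.2 CPM in the other 6, and both sets held both genotypes. Rgs16 ranged from 0.0663 to 21.9 CPM and the chromatin remodeller gene Srcap from 0.205 to 22.5 CPM. Rps2-ps10, which had the largest spread of all, was at 13.9, 9.96, 0, 10.98, 43.2 and 0 CPM in the WT livers and 17.2, 15.4, 0, 0, 33.1 and 0 CPM in the SIRT1intKO livers. Over the 30 genes, WT replicate 2 was the highest liver for 9, SIRT1intKO replicate 5 for 6, and WT replicate 3 and SIRT1intKO replicate 4 were the lowest for 7 each.

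The E-box CACGTG, which the clock proteins bind, was looked for in the same promoters on both strands. It stood in 6 of 20 promoters of the clock genes (30%; 15 of 18 genes had a promoter in the table), those of Bhlhe41, Ciart, Cry1, Per1 and Tef, against 7.15% of all promoters. The D-box, TTATGTAA or TTACGTAA, stood in 1 of the 20, that of Per3, against 1.06% of all. Neither motif was in the 19 promoters of the 30 most variable genes, of which 15 had a promoter in the table. The share among clock genes is a description of these windows and was set against no test.

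1 liver stood apart from the rest by the number of genes with a large deviation. WT replicate 2 differed more than 2-fold from the mean of the other 5 WT livers at 338 of 9023 genes (3.75%), and the other 11 livers differed in this way at 64 to 124 genes (0.709 to 1.37%). By the median absolute deviation over all these genes it did not, with 0.204 on the log2 scale beside 0.237 in SIRT1intKO replicate 5, 0.194 in SIRT1intKO replicate 2 and 0.104 to 0.151 in the other 9 livers. On the first principal component of log2 CPM (18.8% of the variance) it scored 63.9, and the other livers scored -26.3 to 10.7. Mup17 was at 20.5 CPM in this liver and at 877 to 6262 CPM in the others, and Mup15 was at 53.1 against 1644 to 7838 CPM. Icam1, an adhesion molecule, was at 90.0 CPM in it and at 7.92 to 16.5 CPM in the others. The same liver had the highest levels of Mt1, Mt2, Saa1 and Cxcl1 (442 CPM), and the highest of Cyp2a4, a steroid hydroxylase that is higher in females (17.3 CPM against at most 0.178 CPM in the others). Y-linked Ddx3y was at 16.9 CPM and Xist at 0.102 CPM in it, within the ranges of 12.9 to 20.5 and 0 to 0.237 CPM over the 12 livers, which the study took from male mice. Counts of the genotype comparison are therefore also given without this liver. None of the first 4 components separated the genotypes (exact two-sided permutation p = 0.539, 0.268, 0.182 and 0.950 with n = 6 against 6).

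**Figure D2:**
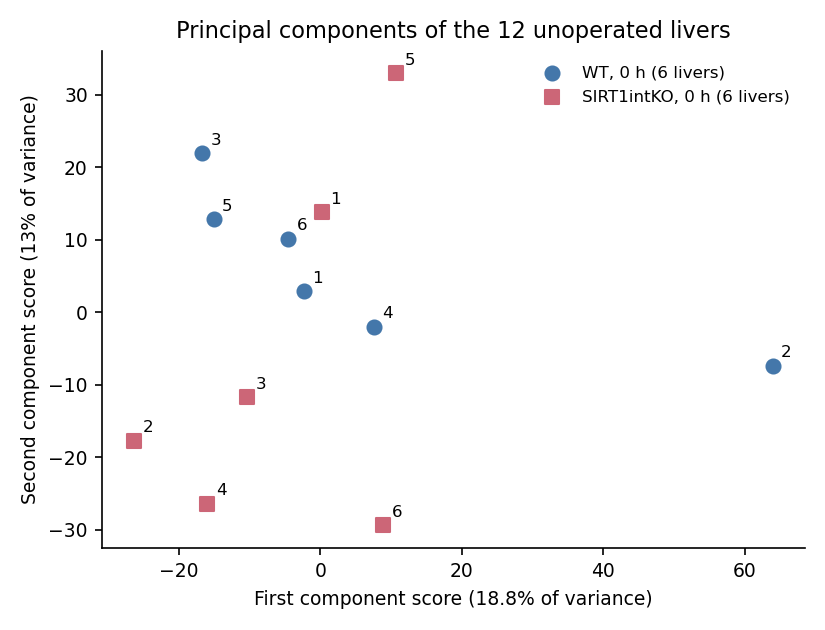
First and second principal components of log2 CPM of the tested genes in the 12 unoperated livers, in score units, with replicate numbers beside the points; circles are WT and squares are SIRT1intKO livers. WT replicate 2 lies alone at a first score of 63.9, and the genotypes overlap on both axes.

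Some genes were present in certain livers and at or near 0 in others. Of the 14980 genes tested, 106 had at most 3 counts in at least 1 unoperated liver and at least 3 CPM in another, a rule written after the values were seen. Of these, 11 were at most at 3 counts in WT livers alone, 38 in SIRT1intKO livers alone and 57 in livers of both genotypes. A single set of livers recurred. H2-Ea, the α chain of the class II E molecule, was at 8.29, 7.97, 6.73, 6.94, 11.8 and 5.13 CPM in the WT livers and 9.53, 4.93, 0.0682, 0, 11.3 and 0 CPM in the SIRT1intKO livers, and thus near 0 in SIRT1intKO replicates 3, 4 and 6 alone. As background, H2-Ea is not expressed from the b haplotype of the mouse MHC, which C57BL/6 carries, and is expressed from several others. H2-T15, a class I-like gene of the same complex, was at 2.44, 2.04, 2.34, 2.37, 7.19 and 2.95 CPM in the WT livers and 2.49, 2.89, 0, 0, 4.39 and 0 CPM in the SIRT1intKO livers. Altogether 14 genes were over 1 CPM in the same 9 livers and under 1 CPM in these 3 livers, where the highest level was 0.887 CPM. They were H2-Ea, H2-T15, H2-Q2 and Gm10503 on chromosome 17, the pseudogenes Glo1-ps, Rps18-ps3, Rps2-ps6, Rnps1-ps and Atp6v0c-ps2, the genes Rps18-ps5 and Hmga1b, and 3 genes without a symbol. Glo1-ps was at 25.1, 15.9, 24.7, 19.2, 37.1 and 20.01 CPM in the WT livers and 21.01, 23.8, 0.546, 0.596, 31.9 and 0.0621 CPM in the SIRT1intKO livers. No gene showed the inverse pattern of more than 1 CPM in these 3 livers and less in each of the other 9.

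Levels also differed among the 9 livers that expressed these genes. WT replicate 5 and SIRT1intKO replicate 5 had the 2 highest levels for 11 of the 14 genes, and the mean of these livers was a median of 2.18 times the median of the other 7 (range over genes 1.49 to 2.90). Rps18-ps6, with 1.02, 0.530 and 0.683 CPM in the 3 livers and 46.2 CPM or more in the other 9, lay just outside the limit of 1 CPM. The choice of the 14 genes did not use the livers after PHx. In those 22 livers none of the 14 genes exceeded 1 CPM (highest level 0.954 CPM), and H2-Ea was at 0 in all of them. The library names in the labels are numbers, from 4103 to 4120 for the unoperated livers and from 1721 to 1748 for the operated livers, so the time after PHx and this numbering cannot be told apart. Between genotypes at 0 h, 1 of the 14 genes had an unadjusted p under 0.05 (edgeR), beside 1.07% of all genes. The 14 genes were chosen for low levels in 3 SIRT1intKO livers, so nothing is read from this count, and the origin of the pattern was not tested.

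**Figure D3:**
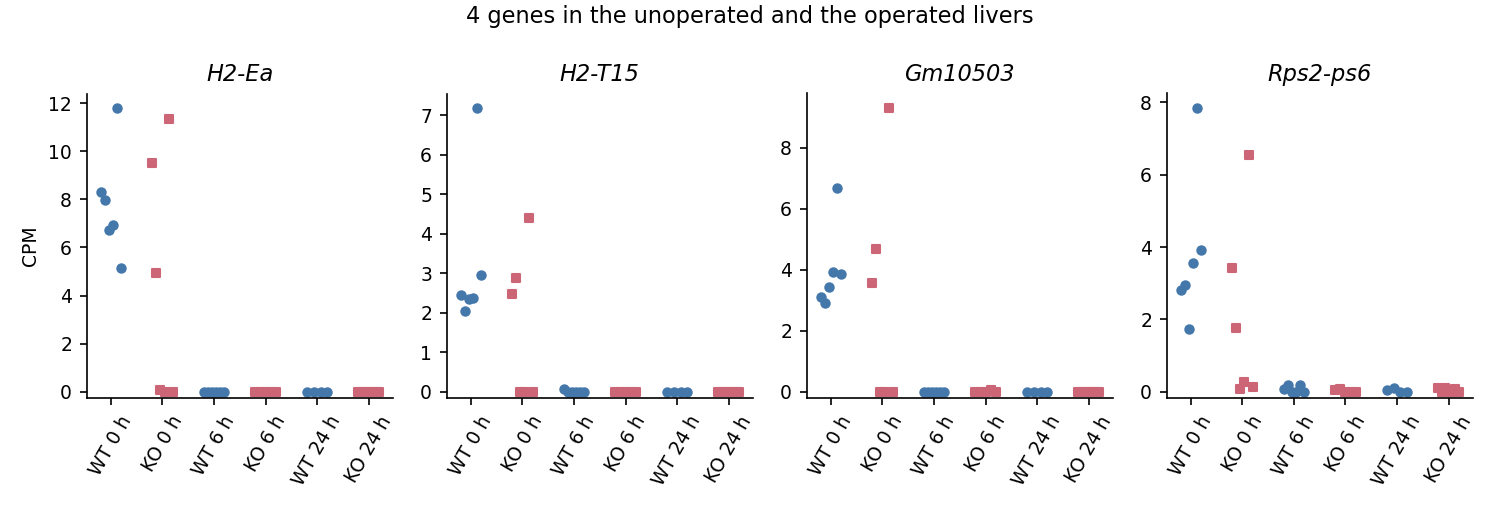
Level in CPM (linear scale) of H2-Ea, H2-T15, Gm10503 and Rps2-ps6 in every liver of the series; circles are WT livers, squares are SIRT1intKO (KO) livers, and groups are ordered by the time after PHx. All 6 WT livers and 3 of 6 SIRT1intKO livers at 0 h expressed the genes, and the 22 livers at 6 h and 24 h lay at or near 0.

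No gene was called different between SIRT1intKO and WT livers at 0 h. The threshold was an adjusted p under 0.05 by edgeR's quasi-likelihood test with an absolute log2 difference over 1, and 0 of 14980 genes (0.0%) passed it, with a smallest adjusted p of 1 (0.188 to 1 with each library left out in turn). An unadjusted p under 0.05 was reached by 161 genes (1.07%), of which 69 were higher (0.461%) and 92 were lower (0.614%) in SIRT1intKO livers. An absolute log2 difference over 1 was found at 299 genes, of which 53 had a mean of at least 1 CPM. Without WT replicate 2 there were 131 genes at an unadjusted p under 0.05, 77 higher (0.516% of 14929 genes) and 54 lower (0.362%), and again no call. DESeq2 called 4 genes (0.0267%), namely Gm45837, Gm12191, Thap6 and Rpl35a-ps4. Each of them was at 0 in all 6 SIRT1intKO livers and was detected in 1 to 3 of the 6 WT livers. Thap6 stands for 2 gene identifiers in the table, and the value is that of the identifier detected in WT replicate 3 alone. Gm45837, for example, was at 0, 0, 4.62, 0, 11.7 and 14.5 CPM in the WT livers. Pde2a had its lowest levels in the livers where Gm45837 was detected, and a split of reads between them was not tested. The fit to the 12 unoperated libraries alone called 0 of 13162 genes (0.0%), with 348 genes (2.64%) at an unadjusted p under 0.05, 187 higher (1.42%) and 161 lower (1.22%), and a smallest adjusted p of 0.382. The fit to all 34 libraries takes its spread from the operated livers as well. Its common biological coefficient of variation was 0.302, against 0.205 in the 12 unoperated livers. Its SEs, intervals and p values include that wider spread, so the lack of calls does not show equal levels. Among the 12234 genes with a mean of at least 1 CPM, the 95% interval of the log2 difference lay wholly between -1 and 1, that is within a 2-fold difference, for 90.2%, and its median half-width was 0.38. The labels describe the libraries as biological replicates.

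**Figure D4:**
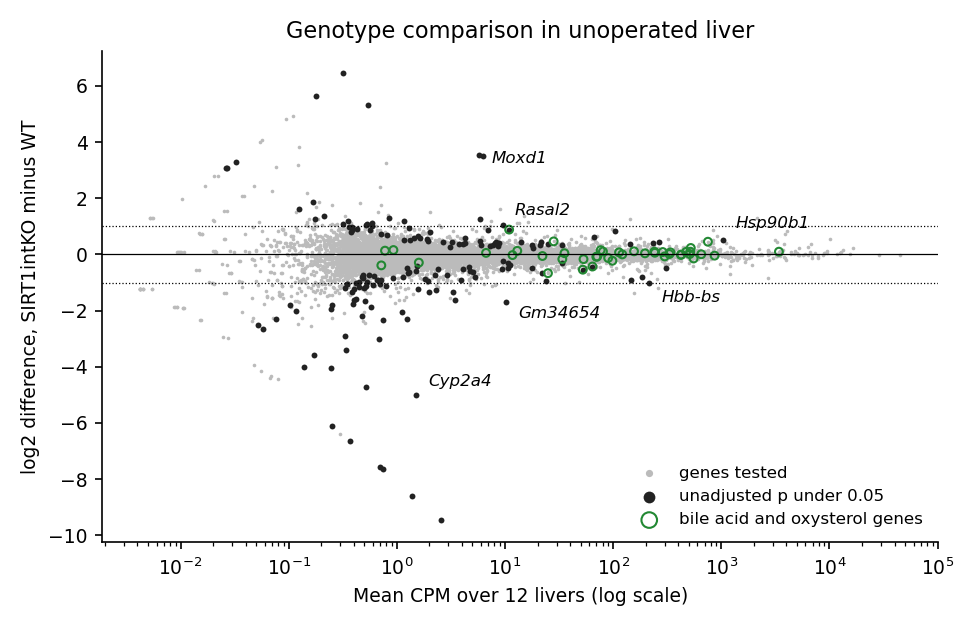
Log2 difference between SIRT1intKO and WT livers at 0 h against the mean CPM over 12 livers (log scale) for the 14980 tested genes in grey, with genes at an unadjusted p under 0.05 in black and the bile acid genes circled in green; dotted lines mark a log2 difference of 1. No gene passed the adjusted threshold, and genes with large differences were mostly of low abundance.

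The 10 genes with the smallest unadjusted p in each direction are described here as values. All 20 had an unadjusted p under 0.05 and an adjusted p of 1 by edgeR, and log2 differences are given with their SE. Rasal2, a GTPase-activating protein for RAS, was at 4.71, 7.61, 5.89, 6.03, 7.78 and 5.39 CPM in the WT livers and 7.69, 12.9, 6.76, 17.8, 7.54 and 23.8 CPM in the SIRT1intKO livers, with a log2 difference of 1.03 ± 0.23 (SE; adjusted p = 1 by edgeR and 0.053 by DESeq2). SIRT1intKO replicates 2, 4 and 6 exceeded every WT liver and the other 3 did not. Inhba, the βA subunit of activins, was at 4.95, 4.80, 3.90, 5.22, 4.95 and 5.84 CPM in the WT livers and 8.34, 6.84, 4.98, 11.7, 8.06 and 14.7 CPM in the SIRT1intKO livers (0.88 ± 0.30). Here 5 of the 6 SIRT1intKO livers exceeded every WT liver, and replicate 3 did not. Hsp90b1, the chaperone GRP94 of the endoplasmic reticulum, was at 932, 890.0, 838, 719, 961 and 780.0 CPM in the WT livers and 716, 1712, 787, 1639, 1060.3 and 1389.6 CPM in the SIRT1intKO livers (0.51 ± 0.19). Dnajb11, a co-chaperone of BiP, was at 139.8, 117, 125, 105, 141 and 123 CPM in the WT livers and 105, 206, 131, 198, 147 and 187 CPM in the SIRT1intKO livers (0.37 ± 0.14). Both chaperones were highest in SIRT1intKO replicates 2, 4 and 6, the livers with the highest Rasal2, and the groups overlapped. Moxd1, a monooxygenase-like gene, was at 57.3 CPM in SIRT1intKO replicate 2 and at 0 to 4.31 CPM in the other 11 livers, and its log2 difference was 3.55 with this liver and 0.59 without it. The other genes of this kind were Gm38416 (1.27), Arl16 (0.37), Swsap1 (0.38), Rsph3b (0.45) and a gene without a symbol (1.17).

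Among the 10 lower genes, Hbb-bs, a β-globin, was the most abundant, at 413, 435, 98.3, 411, 154 and 218 CPM in the WT livers and 102, 102, 120.4, 86.1, 229 and 211 CPM in the SIRT1intKO livers (-1.02 ± 0.41). The other globin genes had log2 differences of the same sign, -0.91 for Hba-a2, -0.94 for Hbb-bt and -0.79 for Hba-a1. The only other tested gene of the red blood cell list differed by 0.018. Of the 5 tested genes of this list, 3 were lower at an unadjusted p under 0.05 by edgeR, beside 0.614% of all genes. Without WT replicate 2, 1 of 5 was lower at such a p, beside 0.362%. The list summed to 375 to 1124 CPM in the WT livers and 315 to 784 CPM in the SIRT1intKO livers, and the groups overlapped. The level of globin mRNA in whole liver cannot separate fewer red blood cells from less RNA per cell, and the same holds for each cell type below. Pot1b, a component of the telomere cap, was at 3.10, 3.88, 3.78, 3.07, 3.50 and 4.42 CPM in the WT livers and 1.60, 1.97, 1.30, 2.98, 3.15 and 2.05 CPM in the SIRT1intKO livers (-0.74 ± 0.25). H2-T10, a class I-like gene of the MHC, was at 4.83, 4.65, 4.68, 3.93, 8.77 and 3.78 CPM in the WT livers and 4.26, 3.75, 0.819, 1.06, 4.59 and 1.61 CPM in the SIRT1intKO livers (-0.92 ± 0.32), and its low livers were SIRT1intKO replicates 3, 4 and 6, where H2-Ea was also at or near 0. Cyp2a4 had a log2 difference of -4.99 with WT replicate 2 and of 2.26 without it. The remaining 6 genes were Gm34654 (-1.68), Antxr1 (-0.81), Tnnt2 (-2.06), Gm45837, Rpl35a-ps4 and a gene without a symbol (-1.35). For Gm34654 the difference was -1.09 and for the gene without a symbol -0.70 without WT replicate 2. Tnnt2 was at 5.01 CPM in WT replicates 2 and 4, the livers with the highest Acta2. It was at 0.119 to 0.264 CPM in the other WT livers and at 0.237 to 0.655 CPM in the SIRT1intKO livers.

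The livers after PHx, from other mice, gave a second measurement for these 20 genes. Of the 10 higher genes, 6 had a difference of the same sign at 6 h and 5 at 24 h, and none had an unadjusted p under 0.05 in the same direction. Of the 10 lower genes, 8 had the same sign at 6 h, 1 of them with an unadjusted p under 0.05, and 2 had the same sign at 24 h. At 24 h, 1 of the higher and 1 of the lower genes had an unadjusted p under 0.05 in the opposite direction. Over all 14980 genes an unadjusted p under 0.05 was found at 6.52% at 6 h and at 23.4% at 24 h. No gene of the 20 had an adjusted p under 0.05 for the change of the genotype difference with time, for which the unadjusted p was under 0.05 at 3.05% of all genes at 6 h and at 12.7% at 24 h. That unadjusted p was under 0.05 at 3 of the 10 higher and 2 of the 10 lower genes at 6 h, and at 4 and 8 of them at 24 h. The 20 genes were chosen by their difference at 0 h, which enters this measure, so nothing is read from these counts. The values of the groups did not overlap at 10 genes (0.0668%), of which 6 were higher (0.0401%) and 4 lower (0.0267%) in SIRT1intKO livers. They were Gm38416, Arl16, Gpr108, Omd, Gm19522 and a gene without a symbol, which were higher, and Map2, Plin3, Slbp and Borcs6, which were lower. Plin3, a lipid droplet coat protein, was at 30.4 to 35.5 CPM in the WT livers and 23.2 to 28.1 CPM in the SIRT1intKO livers. It differed by -0.40 on the log2 scale and did not reach an unadjusted p under 0.05 by edgeR in the fit to all 34 libraries.

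Bile acid genes were examined in depth, since the study followed the intestine to liver route of bile acid control. The 3 lists hold 45 genes, of which 43 were tested. Sirt1 itself, which was deleted only in the intestine, was at 8.35, 15.7, 12.7, 11.6, 9.70 and 12.95 CPM in the WT livers and 10.3, 10.1, 12.4, 9.48, 16.3 and 11.3 CPM in the SIRT1intKO livers (log2 difference -0.024 ± 0.21, exact permutation p = 0.924, n = 6 against 6), so the liver does not check the deletion. Fgf15, the hormone of the ileum, was at 0 in all 12 livers. Of the 43 genes, 1 was higher and 2 were lower at an unadjusted p under 0.05 by edgeR, against 0.461% and 0.614% of all genes tested, and none was called. Without WT replicate 2, 1 was higher and none was lower, against 0.516% and 0.362% of all genes. In the fit to the 12 unoperated libraries, 2 of 42 tested genes were higher (Cyp39a1 and Cyp2c70) and 3 were lower (Slco1a4, Abcg5 and Abcg8), against 1.42% and 1.22%. The median log2 difference was 0.014, beside -0.0066 over all genes tested, and the 95% interval lay wholly between -1 and 1 for 31 of the 43. The differences were positive at 25 genes and negative at 18, and without WT replicate 2 they were positive at 19 and negative at 24, with a median of -0.015. At 6 h after PHx 16 of the 43 differences had the sign seen at 0 h and none was called, and at 24 h 13 had that sign and 3 were called, against 2.68% of all genes. None of the 43 had an adjusted p under 0.05 for a change of the genotype difference with time, and the unadjusted p of that change was under 0.05 at 5 of the 43 at 6 h and at 12 at 24 h, beside 3.05% and 12.7% of all genes. These counts share the unoperated livers with the comparison at 0 h.

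Among the enzymes of synthesis, Cyp7a1 was at 24.9, 15.3, 21.3, 21.3, 39.7 and 19.7 CPM in the WT livers and 26.99, 55.9, 41.6, 26.7, 14.5 and 30.5 CPM in the SIRT1intKO livers. The groups overlapped over most of their range, and the log2 difference was 0.46 ± 0.78 (95% interval -1.12 to 2.05, exact permutation p = 0.247, n = 6 against 6). With each library left out in turn this difference was 0.25 to 0.67. Cyp8b1, which sets the share of cholic acid, was at 469, 207, 511, 469, 475 and 429 CPM in the WT livers and 448, 563, 468, 403, 356 and 288 CPM in the SIRT1intKO livers (-0.019 ± 0.92, exact permutation p = 0.989). WT replicate 2 had the lowest level of Cyp8b1. Cyp27a1, which opens the alternative route, was even at 357 to 495 CPM (-0.0055 ± 0.21), and Cyp7b1, the oxysterol 7α-hydroxylase, was at 279.8 to 798 CPM (0.23 ± 0.54). Cyp39a1, which hydroxylates 24-hydroxycholesterol, was the gene of the lists with a p under 0.05 in the higher direction. It was at 7.39, 11.6, 6.79, 9.53, 1.32 and 9.30 CPM in the WT livers and 10.5, 18.5, 20.5, 13.1, 3.93 and 18.6 CPM in the SIRT1intKO livers (0.88 ± 0.42, p = 0.0422 by edgeR, exact permutation p = 0.123). Replicate 5 was the lowest liver of both genotypes. Cyp2c70, which makes the muricholic acids of the mouse, was at 603, 537, 506, 714, 748 and 704 CPM in the WT livers and 616, 1102, 798, 1025, 644 and 1032 CPM in the SIRT1intKO livers (0.45 ± 0.29, p = 0.127 by edgeR, exact permutation p = 0.0476). SIRT1intKO replicates 2, 3, 4 and 6 exceeded every WT liver. Hsd3b7, an early enzyme of both routes, was at 583 ± 39.9 CPM in the WT livers and 527 ± 33.3 CPM in the SIRT1intKO livers (SD, n = 6 each, exact permutation p = 0.0260).

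The levels of receptors and regulators overlapped between the genotypes. Nr1h4 (FXR) was at 77.6 ± 11.4 and 83.4 ± 9.01 CPM in WT and SIRT1intKO livers (SD, n = 6 each, 0.10 ± 0.26 on the log2 scale with SE). Its target Nr0b2, which represses Cyp7a1, was at 60.5, 19.6, 83.1, 55.4, 66.9 and 52.6 CPM in the WT livers and 30.7, 53.6, 66.9, 42.7, 64.6 and 42.3 CPM in the SIRT1intKO livers (-0.17 ± 0.51), and the lowest value was that of WT replicate 2. Leaving out each library in turn gave -0.35 to -0.024 for the difference of Nr0b2. Fgfr4, the receptor of FGF15 on hepatocytes, differed by 0.044 ± 0.19 and its partner Klb (β-Klotho) by 0.055 ± 0.41.

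Among transporters, Slco1a4, an uptake carrier of the sinusoidal membrane, was at 29.5, 40.2, 29.2, 32.4, 27.7 and 25.01 CPM in the WT livers and 34.3, 16.2, 18.4, 12.7, 19.5 and 14.8 CPM in the SIRT1intKO livers (-0.67 ± 0.43, p = 0.129 by edgeR, exact permutation p = 0.0130). SIRT1intKO replicate 1 lay among the WT livers, and the other 5 SIRT1intKO livers lay below every WT liver. Abcg5 and Abcg8, which together export cholesterol into bile, were the 2 genes with a p under 0.05 in the lower direction. Abcg5 was at 59.7, 112, 43.2, 44.5, 48.2 and 65.7 CPM in the WT livers and 53.1, 29.4, 44.4, 38.4, 59.3 and 31.6 CPM in the SIRT1intKO livers (-0.54 ± 0.23, p = 0.0248 by edgeR, exact permutation p = 0.0801). Abcg8 was at 62.2, 102, 63.4, 65.1, 66.2 and 85.5 CPM in the WT livers and 68.7, 52.6, 65.7, 48.8, 54.9 and 38.99 CPM in the SIRT1intKO livers (-0.43 ± 0.19, p = 0.0302 by edgeR, exact permutation p = 0.0303). WT replicate 2 was the highest liver for both genes, and without it the differences were -0.29 and -0.32, neither with an unadjusted p under 0.05. Slc10a1, the sodium-dependent importer NTCP, differed by 0.014 ± 0.28, and Abcb11 by 0.091 ± 0.24, with 458 ± 15.9 and 488 ± 19.2 CPM (SD, n = 6 each, exact permutation p = 0.0195). The SE of Abcb11 includes the spread of the operated livers. Its SD of log2 CPM within genotypes at 0 h was 0.053. In all, 5 of 43 genes had an exact permutation p under 0.05, Slco1a4, Abcb11, Hsd3b7, Abcg8 and Cyp2c70, unadjusted for the 43 tests, beside 3.01% of all 14980 genes. The smallest p this test allows is 0.0022.

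**Figure D5:**
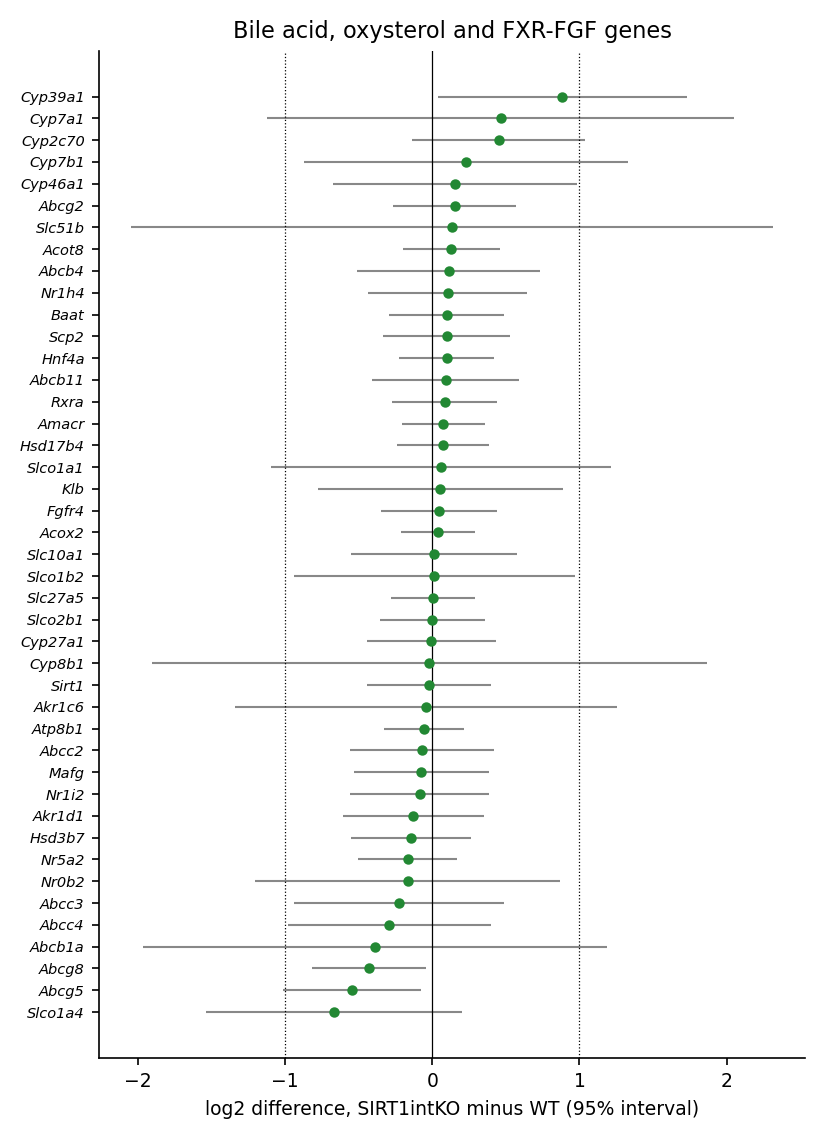
Log2 difference between SIRT1intKO and WT livers at 0 h with its 95% interval from edgeR for the 43 tested bile acid genes, ordered by size; dotted lines mark a difference of 1. The points run from -0.67 for Slco1a4 to 0.88 for Cyp39a1, and 31 of the 43 intervals lie within the dotted lines.

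The other gene lists were compared by their counts, beside 7153 positive and 7808 negative differences over all 14980 genes. Without WT replicate 2 there were 7361 positive and 7542 negative differences over all genes. Of the 20 tested Mup genes, 19 had positive differences and none passed the test, with a median log2 difference of 0.53 that was 0.30 without WT replicate 2. Mup7 was at 7845, 1703, 9419, 9404, 10291 and 11103 CPM in the WT livers and 9713, 11786, 10853, 9593, 15263 and 15014 CPM in the SIRT1intKO livers, and WT replicate 2 was far below the other 11 livers. All 14 male-biased genes had positive differences of small size (median 0.15). Without WT replicate 2 their median was 0.065, with 9 positive and 5 negative differences. Of 24 interferon-stimulated genes 22 had negative differences (median -0.31, also without WT replicate 2), with summed levels of 248 to 387 CPM in the WT livers and 243 to 297 CPM in the SIRT1intKO livers. All 21 genes of cholesterol synthesis and uptake had negative differences (median -0.14), and all 7 MHC class II genes had positive ones (median 0.15). That list does not hold H2-Ea, whose log2 difference was -0.85. None of the genes in these 5 lists had an unadjusted p under 0.05 in the fit to all 34 libraries. In the fit to the 12 unoperated libraries, the Mup genes Mup8, Mup13, Mup18 and Mup20 and the male-biased genes Mup20, Hsd3b5, C6 and Nudt7 were higher at an unadjusted p under 0.05, beside 1.42% of all genes, and the interferon-stimulated Oasl2 and Ifi44 were lower, beside 1.22%. Genes of a list share their regulators and the same 12 livers, so these counts of signs are not independent measurements.

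Elovl5, Ppp1r3g and Stat5a were the genes of the metabolic and growth hormone lists with an unadjusted p under 0.05 by edgeR, each with a lower level in SIRT1intKO livers. They were 1 of 16 tested genes of lipogenesis, 1 of 15 of gluconeogenesis and fasting and 1 of 11 of the growth hormone and IGF axis, beside 0.614% of all genes. Elovl5, an elongase of polyunsaturated fatty acids, was at 452, 522, 322, 351, 288 and 233 CPM in the WT livers and 299.8, 306, 331, 202, 202 and 208 CPM in the SIRT1intKO livers (-0.49 ± 0.20, and -0.35 without WT replicate 2). WT replicates 1 and 2 were the highest livers. They were also the highest for Scd1, the stearoyl-CoA desaturase, which was at 5209, 6413, 2007, 3205, 2029 and 1760.5 CPM in the WT livers and 2094, 2413, 2613, 1440.1, 1276 and 1697 CPM in the SIRT1intKO livers (-0.84 ± 0.42, not under that p), while Fasn, the fatty acid synthase, differed by 0.044 ± 0.35. Ppp1r3g, a glycogen-targeting subunit of protein phosphatase 1, was at 11.6, 8.58, 2.70, 1.67, 1.98 and 4.62 CPM in the WT livers and 3.73, 3.22, 1.09, 0.331, 1.70 and 0.0621 CPM in the SIRT1intKO livers (-1.61 ± 0.65, and -1.41 without WT replicate 2). Stat5a had a log2 difference of -0.49 ± 0.22, and of -0.25 without WT replicate 2. Without that liver Ppp1r3g kept an unadjusted p under 0.05 and Elovl5 and Stat5a did not, while Socs2 of the growth hormone list was higher at such a p (log2 difference 1.37, and 0.57 with that liver). In the fit to the 12 unoperated libraries Igfals, which encodes a serum partner of insulin-like growth factors, was higher (0.29) and Stat5b and Scd1 were lower (-0.20 and -0.83) at an unadjusted p under 0.05, as were Elovl5, Ppp1r3g and 1 of 21 tested genes of fatty acid oxidation, beside 1.42% and 1.22% of all genes. The median differences of the lipogenesis, fatty acid oxidation and gluconeogenesis lists were -0.11, -0.064 and -0.10, and without WT replicate 2 they were -0.083, -0.13 and -0.16. Negative differences then numbered 21 of 22 in the fatty acid oxidation list (16 with that liver) and 12 of 15 in the gluconeogenesis list (10 with it). Over all genes 7542 differences were then negative and 7361 positive. Of 20 acute-phase genes and STAT3 targets, 4 then had negative and 16 positive differences, against 13 and 7 with WT replicate 2.

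Summed levels of cell type markers overlapped between the genotypes. Hepatocyte markers summed to 99317 to 111594 CPM in the WT livers and 91822 to 119590.0 CPM in the SIRT1intKO livers. Kupffer cell markers summed to 139 to 317 CPM in the WT livers and 199.5 to 417 CPM in the SIRT1intKO livers, sinusoidal endothelial markers to 227 to 344 CPM in the WT livers and 252 to 370.5 CPM in the SIRT1intKO livers and cholangiocyte markers to 46.7 to 75.1 CPM in the WT livers and 53.6 to 74.01 CPM in the SIRT1intKO livers. Stellate cell markers summed to 275 to 413 CPM in the WT livers and 246 to 374 CPM in the SIRT1intKO livers. Acta2 was high in WT replicates 2 and 4 (34.4 and 25.8 CPM) and at most at 12.2 CPM elsewhere. Actg2 (3.32 and 4.52 CPM), Cnn1 (4.09 and 5.17 CPM) and Pdlim3 (4.44 and 3.93 CPM) were also highest in these livers. Elsewhere they were at most at 2.30, 2.17 and 1.12 CPM. Of the 14 pancreatic acinar genes 8 were at 0 in all livers, and the sum of the list, 22.3 to 54.2 CPM in the WT livers and 32.04 to 47.1 CPM in the SIRT1intKO livers, came almost wholly from Cela1, an elastase gene at 22.2 to 53.9 CPM. Of the 10 intestinal epithelial genes the defining Sis, Alpi and Fgf15 were at 0 in all 12 livers and Vil1 at 0.310 CPM or less. Apoa4, an apolipoprotein that liver also expresses, was at 76.6 to 231 CPM, Fabp2, a fatty acid binding protein, at 32.7 to 42.4 CPM, the bile acid importer Slc10a2 at 8.39 to 50.1 CPM and the galectin Lgals4 at 11.7 to 23.8 CPM. This list summed to 152 to 210.2 CPM in the WT livers and 185 to 303 CPM in the SIRT1intKO livers, and the groups overlapped. Cell cycle genes were low, with summed levels of 37.04 to 51.8 CPM in the WT livers and 39.7 to 62.4 CPM in the SIRT1intKO livers, and none of the 11 tested had an unadjusted p under 0.05.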

How the data were processed

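Livers of the 12 unoperated mice were grouped by labelled genotype and time. Per the submitters' processing notes, the authors used STAR, Salmon and GRCm39 (versions not given in the sources used here), and they deposited 1 table of expected counts for 78298 genes, of which 4.97% of values were not whole. Of 35 value columns, 34 were used and 1 matched no sample. Counts were rounded, filtered with filterByExpr (14980 genes) and scaled by TMM. Genotypes were compared with edgeR 4.0.16's quasi-likelihood test (R 4.3.3) with 1 mean for each genotype and time over all 34 libraries, which therefore share an estimate of the spread, followed by Benjamini-Hochberg adjustment. DESeq2 1.42.0 was an alternative, and the tests were tried on simulated data with known changes. CPM were computed from the counts, and log2 CPM with a prior count of 2. Exact permutation tests used mean log2 CPM over all 924 splits of the 12 livers and were two-sided, and correlations used 100000 permutations, with p adjusted over 8 pairs of genes, of which 1 is not reported here. Totals of 14934058 to 18400075 counts limit the precision of low genes. Reads of near-identical copies (Mup genes, pseudogenes, MHC and globin genes) may have been split uncertainly. Whether reads were also split between Pde2a and Gm45837 was not tested. The genes named were the 30 most abundant, the 30 most variable with a mean of at least 5 CPM, the 10 most even with at least 50 CPM, genes called by either tool, the 10 of smallest p in each direction with at least 1 CPM (by identifier where the file gives no other symbol), and members of the gene lists. These samples, lists and rules were chosen with earlier results of these data known. Lengths came from the vM21 annotation, which held 65.8% of the gene identifiers. Promoter sequences came from RefSeq and were not matched to the build of the counts.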

Additional observations from a re-analysis of the deposited data

Results flagged for a closer look

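In each group of 6 livers, the highest and the lowest value were compared with the nearest other value (Dixon's ratio, critical value 0.625). Of 272 groups of values examined, 45 (16.5%) exceeded it. Chance flags about 1 in 20, but many of the genes were named for their spread in these livers, which raises that share, so nothing is read from it. WT replicate 2 was the liver concerned in 18 of them. In each case below, the value of the liver is set against the range of the other 5 livers of its genotype.

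WT replicate 2 had a first principal component score of 63.9 against -16.7 to 7.597, and 338 genes over 2-fold from the other livers against 64 to 116. Its summed levels were lowest for bile acid synthesis enzymes (6841 against 8311 to 9138 CPM) and for bile acid and bile lipid transporters (1934 against 2476 to 2677 CPM). They were highest for female-biased liver genes (58.3 against 7.27 to 19.8 CPM), for hepcidin, iron and metallothionein genes (8819 against 5404 to 6381 CPM) and for ribosomal protein genes (4619.8 against 3625 to 3865 CPM). Single genes of this liver that stood apart were Gm38416 (2.04 against 3.59 to 3.98 CPM), Swsap1 (2.50 against 3.54 to 3.94 CPM), ENSMUSG00000128770 (13.1 against 1.08 to 4.59 CPM), Cyp2a4 (17.3 against 0 to 0.0538 CPM), Cyp8b1 (207 against 429 to 511 CPM), Slc10a1 (216 against 311 to 368 CPM), Abcg5 (112 against 43.2 to 65.7 CPM), Slc51b (1.79 against 0.377 to 0.726 CPM), Mt1 (1207 against 18.6 to 367 CPM), Mt2 (838 against 8.11 to 225 CPM) and Gm4841 (19.3 against 0.477 to 6.46 CPM).

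Of the other summed levels, MHC class II genes were lowest in WT replicate 6 (99.5 against 133 to 149 CPM), cell cycle genes highest in SIRT1intKO replicate 6 (62.4 against 39.7 to 47.8 CPM) and NRF2 target and glutathione genes highest in SIRT1intKO replicate 5 (6944 against 4949 to 5233 CPM). Female-biased genes were lowest in SIRT1intKO replicate 5 (9.05 against 12.3 to 14.2 CPM). The intestinal epithelium list, which includes the liver gene Apoa4, was highest in SIRT1intKO replicate 2 (303 against 185 to 211 CPM). The Y-linked genes and Xist together were highest in WT replicate 4 (92.1 against 76.1 to 80.7 CPM) and lowest in SIRT1intKO replicate 4 (69.3 against 79.9 to 83.7 CPM).

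In WT replicate 1, Arl16 (2.27 against 3.22 to 3.72 CPM) and Ugt2b38 (19.7 against 0 to 6.79 CPM) stood apart. In WT replicate 4, Dmbt1 (5.60 against 0 to 0.153 CPM) stood apart. In WT replicate 5, Moxd1 (4.09 against 0 to 0.962 CPM), H2-T10 (8.77 against 3.78 to 4.83 CPM), Rps2-ps10 (43.2 against 0 to 13.9 CPM), Rps18-ps6 (126 against 56.1 to 74.7 CPM), Il10rb (0 against 5.71 to 8.23 CPM) and Atp6v0c-ps2 (15.4 against 6.74 to 8.22 CPM) stood apart. In WT replicate 6, Gm45140 (0 against 11.2 to 13.9 CPM) stood apart. In SIRT1intKO replicate 1, Slco1a4 (34.3 against 12.7 to 19.5 CPM) and Il10rb (0.355 against 6.21 to 9.37 CPM) stood apart. In SIRT1intKO replicate 2, Moxd1 (57.3 against 0.118 to 4.31 CPM) stood apart. In SIRT1intKO replicate 3, Mt1 (575 against 10.7 to 124 CPM) and Mt2 (366 against 6.49 to 55.5 CPM) stood apart. In SIRT1intKO replicate 5, Amacr (97.3 against 117 to 124 CPM), Mafg (87.8 against 62.6 to 68.9 CPM), Gm20708 (46.2 against 0 to 8.63 CPM) and Rps18-ps3 (17.4 against 0 to 4.14 CPM) stood apart. In SIRT1intKO replicate 6, Dmbt1 (64.5 against 0 to 3.68 CPM) stood apart. The causes of these values were not tested.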

How the results depend on the processing

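DESeq2 called 4 genes where edgeR called 0, and no other alternative called any. Genes with an unadjusted p under 0.05 numbered 161 in the fit to all libraries, 863 among every gene with at least 1 count, 65 among genes that reached 10 counts throughout, 348 in the fit to 12 libraries and 333 in that fit without WT replicate 2, and 122 to 222 with each library left out in turn. The replicate numbers did not pair the livers (correlation of deviations -0.34 to 0.022 for equal numbers, and 0 of 6 livers correlated best with their own number), and with the replicate block the count was 246. Of 1257 log2 differences of 65 named genes under the alternatives, 1191 kept their direction and side of the threshold, 4 passed it (the DESeq2 calls) and 62 changed sign, 53 of them with 1 library left out. With each library left out in turn the log2 differences of the 18 genes that changed sign were Cyp2a4 -5.34 to 2.26, Cyp8b1 -0.16 to 0.069, Cyp27a1 -0.053 to 0.033, Akr1c6 -0.12 to 0.0075, Acox2 -0.0098 to 0.082, Hsd17b4 -0.0072 to 0.15, Slc27a5 -0.026 to 0.059, Fgfr4 -0.0087 to 0.11, Klb -0.094 to 0.18, Nr1i2 -0.14 to 0.0035, Sirt1 -0.14 to 0.074, Slc10a1 -0.083 to 0.080, Slco1a1 -0.052 to 0.14, Slco1b2 -0.10 to 0.11, Slco2b1 -0.031 to 0.034, Abcb4 -0.0036 to 0.17, Slc51b -0.26 to 0.65 and Atp8b1 -0.11 to 0.0071. Without WT replicate 2 in the fit to the unoperated livers, the differences were -0.0019 for Acox2, -0.019 for Slc27a5, 0.081 for Sirt1, -0.075 for Slc10a1, -0.045 for Slco1a1, -0.094 for Slco1b2 and -0.0075 for Slco2b1. That alternative was chosen after seeing the data. The difference of Cyp27a1 was 0.0011 in the fit to 12 libraries, and that of Slco2b1 was -0.00011 with every gene kept. The cause of these changes was not tested. Of the 30 most variable genes, 14 remained when genes with a mean of at least 1 CPM were ranked, and 26 to 30 with each library left out. The 30 most abundant genes took 29.8% without mitochondrially encoded genes, and 31.7 to 31.9% with each library left out. Correlations with each library left out were -0.074 to 0.41 for Nr0b2 and Cyp7a1, 0.44 to 0.72 for Srebf1 and Fasn and -0.28 to 0.16 for Arntl (Bmal1) and Dbp.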
